A study of Mus musculus with 4 samples.

Results

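The data cover 10 collagen genes outside the fibril-forming family, taken from the gene expression table of mesenchymal stem cells (MSCs) by their gene symbols. The table lists 17457 genes, and all 10 symbols were found in it. They fall into 4 collagen classes by the build of their products. *Col4a1* and *Col4a2* are basement membrane collagens, *Col8a1* and *Col8a2* are network-forming short-chain collagens, *Col12a1*, *Col14a1*, *Col16a1* and *Col22a1* are FACITs (fibril-associated collagens with interrupted triple helices), and *Col15a1* and *Col18a1* are multiplexins of the basement membrane zone.

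MSCs were sorted from digested long bones, emptied of their marrow, of female C57BL/6J mice injected at 7 to 9 weeks of age. Leukemia mice received 1000 cells of the BCR-ABL1+ pre-B acute lymphoblastic leukemia (B-ALL) line PER-M60, which carries a BCR-ABL1 and mCherry retrovirus, *via* the tail vein, and control mice received phosphate-buffered saline. Cells from leukemia mice at the onset of disease symptoms (L-MSCs) and from control mice were each sequenced as 2 libraries, and each library pooled 4 to 7 mice. The paper gives no time of harvest for the control mice of these libraries. The leukemia is a single transplanted line in immunocompetent hosts, and in pooled samples the spread between libraries is not a spread between mice. The sort kept CD45-, TER119-, CD31-, Sca-1+, PDGFRα+ cells.

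The values are FPKM, fragments scaled to transcript length and to the mapped fragments of the library, so that levels can be compared between genes. Their sums were 559601 to 588926 per library, the number of reads behind each library was not used here, and no counting interval was computed. The lowest FPKM of *Ly6a* (Sca-1) in any library was 1056 and that of *Pdgfra* 66.8, and *Ptprc* (CD45) and *Pecam1* (CD31) were below 1 in every library. The test ran over the 11056 genes that reached an FPKM of 1 in 2 or more libraries, compared with limma on log2(FPKM + 1) after scaling by the median of ratios, and all 10 collagens passed this filter. On this scale the change of low genes is understated. A call needed both an adjusted p (Benjamini-Hochberg, over all genes tested) no higher than 0.05 and a change of 1 or more on the log2 scale. Genes said to rise or fall are those called. Each p rests on the spread that limma pools over genes, since an exact permutation test with 2 libraries against 2 cannot go below 0.33.

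Collagens outside the fibrillar family organize the matrix around cells and fibrils. Collagen IV chains form the sheet-like scaffold of basement membranes, collagen VIII chains form hexagonal lattices around vessels and under epithelia, FACITs sit on the surface of collagen I fibrils, and multiplexins carry glycosaminoglycan chains and link basement membranes to the matrix next to them. In the marrow, basement membrane surrounds sinusoids and arterioles, and perivascular stromal cells lie against it.

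The genes of both collagen IV chains start head to head on chromosome 8, and those of both collagen VIII chains lie on different chromosomes. *Col4a1* (gene identifier 12826) runs on the minus strand of GRCm38.p6 from 11198423 to 11312889 and *Col4a2* (12827) on the plus strand from 11312805 to 11449287, so that their RefSeq bounds overlap by 85 bases. In the GENCODE M21 annotation the first exons overlap by 22 bases, but the authors aligned reads to NCBI genes. Libraries of the amplification kit used carry no strand, so that reads wholly within an overlap cannot be assigned to one gene. *Col8a1* (12837) lies on chromosome 16 from 57624256 to 57754737 on the minus strand, and *Col8a2* (329941) on chromosome 4 from 126286794 to 126314330 on the plus strand. The 22 bases shared by the collagen IV starts in GENCODE M21 and the 250 bases before each collagen VIII start are shown. The collagen VIII windows were chosen after the values were seen. Sequences are those of RefSeq for GRCm38.p6, 5′ to 3′, with capitals for the GC box GGGCGG on either strand.
*Col4a1* and *Col4a2*, chr8:11312805-11312826, plus strand: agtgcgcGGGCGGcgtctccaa
*Col8a1*, chr16:57754738-57754987, minus strand: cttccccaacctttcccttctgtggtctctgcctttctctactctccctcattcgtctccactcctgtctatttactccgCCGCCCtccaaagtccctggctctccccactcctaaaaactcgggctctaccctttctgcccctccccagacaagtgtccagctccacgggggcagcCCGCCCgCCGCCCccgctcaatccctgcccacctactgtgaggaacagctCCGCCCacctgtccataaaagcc
*Col8a2*, chr4:126286544-126286793, plus strand: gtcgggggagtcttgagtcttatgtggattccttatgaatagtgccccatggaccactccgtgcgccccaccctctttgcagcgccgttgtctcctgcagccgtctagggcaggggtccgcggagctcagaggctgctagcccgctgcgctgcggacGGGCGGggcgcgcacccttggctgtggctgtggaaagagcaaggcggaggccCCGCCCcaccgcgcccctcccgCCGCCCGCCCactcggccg
Windows were found for 7 of the 10 genes. The letters GGGCGG, searched on both strands in the 250 bases before the start, were in a window of 5 of the 7 genes and in 32.7% of all 32851 windows. CCAAT was in a window of 4 of the 7 and in 33.8% of all, and TATAAA was in 0 of the 7 and in 12.4% of all. The counts are of genes with the letters in any of their windows and the percents are of single windows, so the measures differ. In *Col8a1* the GC boxes began 170, 73, 66 and 23 bases before the start, and in *Col8a2* 93, 41, 19 and 15 bases before it, with the last 2 overlapping. A match of letters is a description of the window only.

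Of the 10 collagens, 1 was called lower in L-MSCs and 0 were called higher, where 2.65% of all genes tested were called lower, 2.43% higher and 5.08% in either direction. The one called was *Col15a1*. At an adjusted p of at most 0.05 alone, *Col8a1* was lower as well, and 3.23% of all genes tested were lower and 2.58% higher by that rule. At an unadjusted p of at most 0.05, 4 collagens were lower and 1 was higher, against 11.6% and 9.54% of all genes (21.2% in either direction), and limma was the only tool used. After scaling, both L-MSC libraries lay below both control libraries for 5 of the 10 and above them for 3, where 27.2% and 24.8% of all genes did so, together 52.0%. The median log2 fold change of the 10 was -0.36, beside -0.01 over all genes tested. Of all calls, 269 were higher and 293 lower, and without scaling 301 were higher and 194 lower. In sorted cells of this kind, fewer cells of a type and less RNA per cell cannot be told apart.

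**Figure D1:**
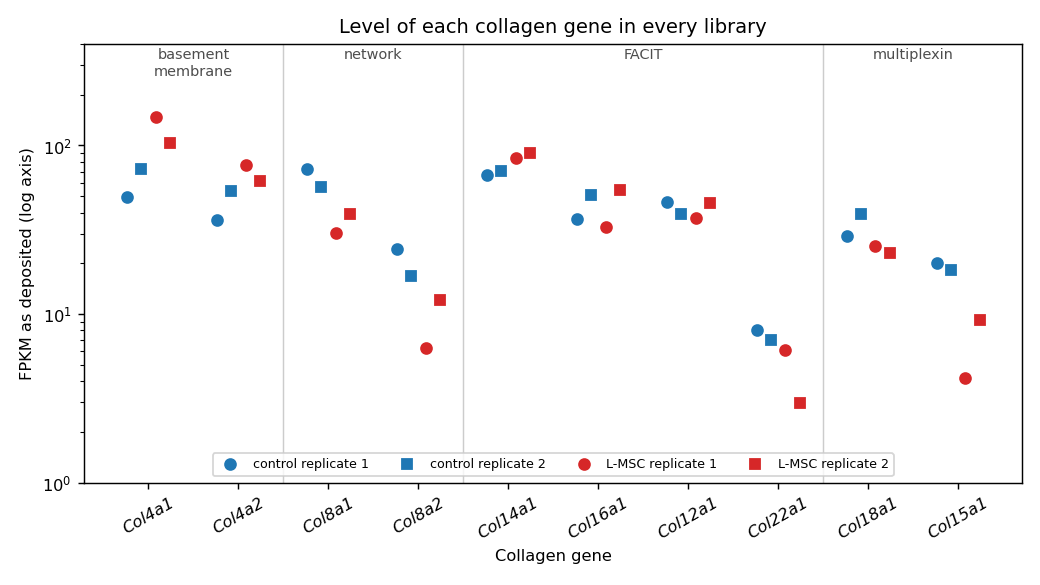
FPKM as deposited (log axis) of the 10 collagen genes in each of the 4 libraries, grouped by class, with controls in blue and L-MSCs in red. Both collagen IV genes and *Col14a1* were higher in both L-MSC libraries, both collagen VIII genes, both multiplexins and *Col22a1* were lower, and *Col12a1* and *Col16a1* overlapped.

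The collagen IV genes were the only class of the 4 with both members higher in both L-MSC libraries, and neither passed the test. *Col4a1*, which encodes the more abundant chain of the main collagen IV trimer, had an FPKM of 49.1 and 72.4 in control replicates 1 and 2, and 147 and 104 in the respective L-MSC replicates. Its log2 fold change was 0.93 (95% confidence interval 0.35 to 1.52, adjusted p = 0.0713 from limma), and 5.61% of all genes tested had a larger increase. *Col4a2*, the partner chain, had an FPKM of 36.1 and 53.8 in control MSCs and of 76.96 and 61.9 in L-MSCs. Its log2 fold change was 0.53 (95% confidence interval -0.02 to 1.09, adjusted p = 0.258 from limma). L-MSC replicate 1 was the highest library for both genes and control replicate 1 the lowest, and the replicates of each group were well apart. Without L-MSC replicate 2, *Col4a1* had a log2 fold change of 1.202, and without control replicate 2 it had 1.18. Its log2 fold change was 0.663 without control replicate 1 and 0.657 without L-MSC replicate 1. Over the alternatives that kept all 4 libraries, its adjusted p from limma ranged from 0.00138 to 0.267. The low end came from a fit blocked by replicate number, a pairing that no label gives.

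The ratio of the collagen IV chains also differed between the groups. The FPKM of *Col4a2* was 0.734 and 0.742 of that of *Col4a1* in control MSCs and 0.525 and 0.597 in L-MSCs. The ratio is taken within a library and does not depend on the scaling, and it is given with no test. *Col4a1* ranked 3 and 1 among the 10 collagens in the control libraries and 1 in both L-MSC libraries. *Col4a5*, the other collagen IV chain that passed the filter, had an FPKM of 2.12 and 2.65 in control MSCs and of 2.10 and 2.91 in L-MSCs. Its groups overlapped, with a log2 fold change of -0.03 (adjusted p = 0.972 from limma). *Col4a3*, *Col4a4* and *Col4a6*, chains of specialized basement membranes such as that of the kidney glomerulus, stayed below an FPKM of 1 in every library.

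Endothelial cells and pericytes are among the sources of collagen IV, and the CD31- gate was set against endothelial cells. Of 12 endothelial markers, 3 passed the filter and 0 were called, and 0 had an unadjusted limma p up to 0.05. *Plvap* had an FPKM of 12.8 and 7.05 in control MSCs and of 7.12 and 6.86 in L-MSCs. *Tek* had 2.71 and 3.70 against 2.35 and 3.07, and *Esam* 1.66 and 0.92 against 2.55 and 0.36. *Vwf*, *Cldn5* and *Tie1* were listed at 0 in every library. The summed FPKM of the 12 was 12.4 to 18.3 in control MSCs and 12.3 to 12.5 in L-MSCs, and *Plvap* held most of it. Of 10 markers of pericytes and smooth muscle, 7 passed the filter and 0 were called, while 1 was higher and 2 were lower by an unadjusted limma p up to 0.05. Their summed FPKM was 80.6 to 87.6 in control MSCs and 63.3 to 67.6 in L-MSCs. Members differed in direction. *Cspg4* had an FPKM of 25.4 and 47.0 in control MSCs and of 18.1 and 23.5 in L-MSCs, *Tagln* 8.68 and 8.09 against 4.35 and 3.90, and *Kcnj8* 0.25 and 0.30 against 1.35 and 1.23, while the groups overlapped for *Rgs5* and *Acta2*. The part of such cells in the collagen IV levels was not tested.

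The collagen VIII genes were lower in both L-MSC libraries. *Col8a1*, encoding a chain of the hexagonal networks that vascular and mesenchymal cells secrete, had an FPKM of 72.3 and 56.9 in control MSCs and of 30.2 and 39.1 in L-MSCs. It was 1.97-fold lower, a log2 fold change of -0.98 (95% confidence interval -1.50 to -0.46, adjusted p = 0.0396 from limma), which passed the adjusted p and fell short of the fold threshold. *Col8a2*, whose human counterpart carries mutations in a dystrophy of the corneal endothelium, had an FPKM of 24.3 and 16.9 in control MSCs and of 6.26 and 12.1 in L-MSCs. Its log2 fold change was -1.22 (95% confidence interval -1.95 to -0.49, adjusted p = 0.0618 from limma), past the fold threshold and short of the adjusted p. The groups did not overlap for either gene, and L-MSC replicate 1 was the lowest library for both. Without L-MSC replicate 2, the log2 fold changes were -1.14 and -1.62, and without control replicate 2 they were -1.18 and -1.50. They were -0.80 and -0.97 without control replicate 1, and -0.83 and -0.82 without L-MSC replicate 1. Over all 15 alternatives the adjusted p from limma ranged from 0.00121 to 0.194 for *Col8a1* and from 5.30e-04 to 0.266 for *Col8a2*. Both low ends came from the fit blocked by replicate number. *Col8a1* was the most abundant of the 10 collagens in control replicate 1 and ranked 6 in both L-MSC libraries. The FPKM of *Col8a2* was 0.336 and 0.297 of that of *Col8a1* in control MSCs and 0.207 and 0.309 in L-MSCs, so that the ratios overlapped.

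*Col15a1* was the member called lower. It encodes a multiplexin with chondroitin sulfate chains that sits between basement membranes and collagen fibrils, and it lies on chromosome 4 of GRCm38.p6 from 47207655 to 47313167. Its FPKM was 20.1 and 18.2 in control MSCs and 4.19 and 9.18 in L-MSCs. It was 2.95-fold lower, with a log2 fold change of -1.56 (95% confidence interval -2.30 to -0.82, adjusted p = 0.0261 from limma). The control libraries were close to each other, and L-MSC replicate 1 was the lowest of the 4. The call ended without control replicate 1, control replicate 2 or L-MSC replicate 1 (adjusted p = 0.0670, 0.0818 and 0.0776 from limma) and held without L-MSC replicate 2. Over all 15 alternatives the gene was called in 9, its adjusted p from limma ranged from 7.19e-06 to 0.212, and its log2 fold change ranged from -2.02 to -1.10. The low end of the adjusted p came from the fit blocked by replicate number.

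The other multiplexin, *Col18a1*, was lower by less. Its product is a heparan sulfate proteoglycan of basement membranes whose end is released as endostatin, an inhibitor of angiogenesis. The gene, on chromosome 10 from 77052178 to 77166530, had an FPKM of 29.2 and 39.0 in control MSCs and of 25.5 and 23.0 in L-MSCs. Its log2 fold change was -0.56 (95% confidence interval -1.09 to -0.03, adjusted p = 0.211 from limma) and did not pass. The groups did not overlap, but the lower control library was near the higher L-MSC library. The FPKM of *Col15a1* was 0.688 and 0.467 of that of *Col18a1* in control MSCs and 0.165 and 0.399 in L-MSCs.

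**Figure D2:**
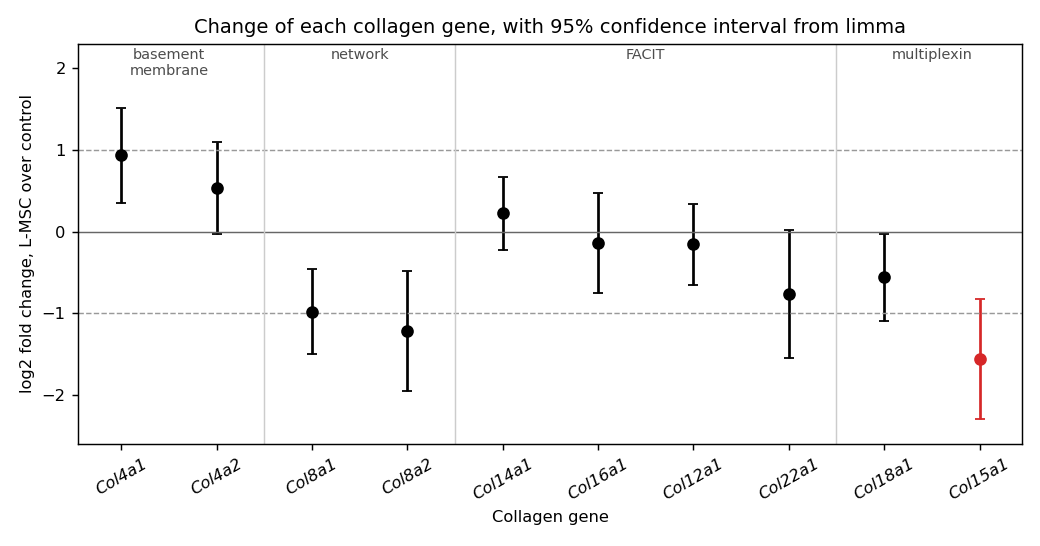
Log2 fold change of each collagen gene in L-MSCs over control MSCs, with its 95% confidence interval from limma (n = 2 libraries per group). Dashed lines mark the fold threshold of 1 in either direction, and *Col15a1*, at -1.56, is the gene in red that passed both thresholds.

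Of the 4 FACIT genes, 0 were called, and 0 had an unadjusted limma p up to 0.05. *Col14a1*, whose product binds decorin on the surface of fibrils, was the most abundant, with an FPKM of 67.2 and 70.8 in control MSCs and of 83.7 and 90.0 in L-MSCs. The replicates of each group were close, both L-MSC libraries were above both controls, and the log2 fold change was 0.23 (95% confidence interval -0.22 to 0.67, adjusted p = 0.575 from limma). *Col12a1*, a large FACIT of tendon, ligament and periosteum that binds tenascin-X, had an FPKM of 46.4 and 39.3 in control MSCs and of 37.2 and 45.3 in L-MSCs. Its groups overlapped, with a log2 fold change of -0.16 (95% confidence interval -0.65 to 0.34, adjusted p = 0.745 from limma). *Col16a1*, a FACIT found near basement membranes and in cartilage, had an FPKM of 36.9 and 50.6 in control MSCs and of 32.7 and 54.1 in L-MSCs. Replicate 2 was the higher library in both groups, and the log2 fold change of -0.14 (95% confidence interval -0.75 to 0.48, adjusted p = 0.823 from limma) turned to 0.06 without control replicate 2 and to 0.19 without L-MSC replicate 1. *Col22a1*, a FACIT of tissue junctions such as that of muscle and tendon, was the lowest of the 4, with an FPKM of 8.01 and 7.03 in control MSCs and of 6.13 and 2.95 in L-MSCs. Its log2 fold change was -0.77 (95% confidence interval -1.55 to 0.02, adjusted p = 0.247 from limma), and L-MSC replicate 2 alone was below an FPKM of 5.

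Genes whose products partner FACITs, and markers of tendon, were in part lower in the same libraries. Of 8 partner genes, 2 were called lower and 0 higher, and the median change of the 8 was -0.51 on the log2 scale. *Tnc*, encoding tenascin-C, fell by 1.81 on the log2 scale (adjusted p = 0.0104 from limma) and *Fmod*, encoding the fibril-binding fibromodulin, fell by 1.41 (adjusted p = 0.0464 from limma). *Postn*, encoding periostin, had an FPKM of 83.7 and 51.2 in control MSCs and of 116 and 172 in L-MSCs, and its log2 fold change of 1.00 did not pass (adjusted p = 0.0727 from limma). Without control replicate 2, 0 of the 8 were called, and 1 was called higher without control replicate 1, without L-MSC replicate 1 and after quantile normalization. *Dcn*, encoding decorin and the most abundant of them, had a log2 fold change of 0.16 (adjusted p = 0.831 from limma). Of 7 markers of tendon and tendon sheath, 3 fell, namely *Tppp3*, *Kera* and *Tnmd*, with log2 fold changes of -3.30, -2.91 and -2.06. Tendon markers that fell numbered 2 with TPM or after quantile normalization, and 1 with a robust fit or without a variance trend. They numbered 0 without the filter and 4 with the replicate block. *Prg4*, encoding lubricin, was higher in both L-MSC libraries without passing, with an FPKM of 1912 and 1825 in control MSCs and of 3760 and 2317 in L-MSCs, and *Mkx* overlapped. The summed FPKM of the 7 was 5029 to 6221 in control MSCs and 3926 to 4608 in L-MSCs. The part of these cells in the levels of *Col12a1*, *Col14a1* and *Col22a1* was not tested.

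Summed over the 10 genes, the FPKM was 389.5 and 425 in control MSCs and 449 and 441 in L-MSCs. All 4 sums were close, and the classes within them differed in opposite directions. The collagen IV pair held 85.2 and 126 in control MSCs and 224 and 165 in L-MSCs, whereas the collagen VIII pair held 96.6 and 73.8 against 36.5 and 51.2. The multiplexins held 49.3 and 57.2 against 29.7 and 32.2, and the FACITs 158 and 168 against 159.7 and 192.

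The summed FPKM of all 44 collagen genes in the table was 16760 and 17544 in control MSCs and 5561 and 9380 in L-MSCs. The 10 genes made up 2.32% and 2.42% of it in control MSCs and 8.08% and 4.70% in L-MSCs. The groups did not overlap (exact two-sided permutation p = 0.33, the smallest that 2 libraries against 2 can give). The difference of the means was 4.02 percentage points, and with each library left out it went from 2.33 without L-MSC replicate 1 to 5.71 without L-MSC replicate 2. Collagen IV went from 0.508% and 0.719% to 4.02% and 1.76% of all collagen FPKM. The FPKM of *Col4a1* was 0.00748 and 0.0122 of that of *Col1a1*, the main chain of collagen I, in control MSCs and 0.0907 and 0.0332 in L-MSCs.

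**Figure D3:**
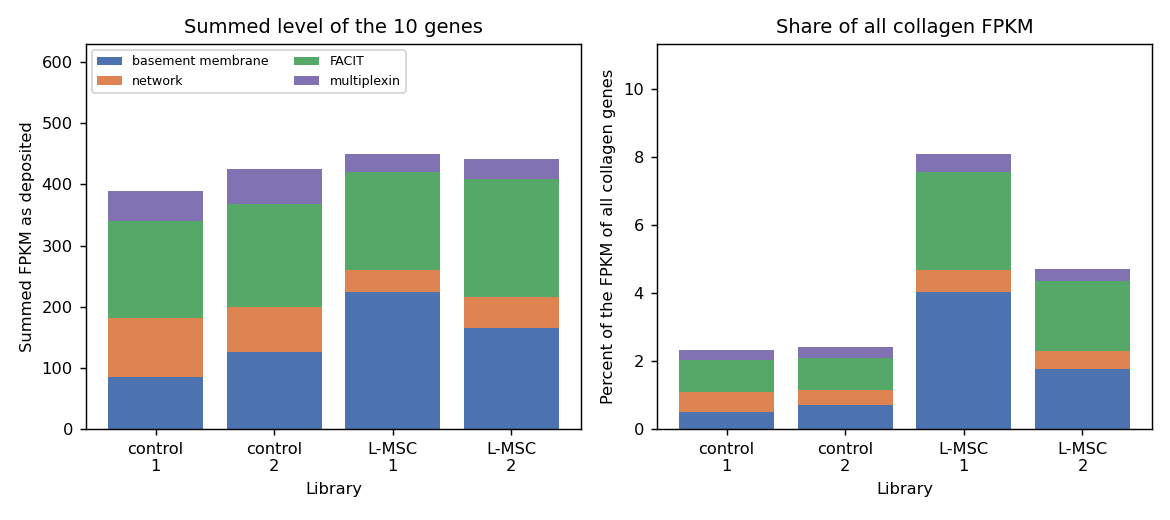
Summed FPKM as deposited of the 10 collagen genes by class (left) and their percent of the FPKM of all 44 collagen genes (right) in each library, as stacked bars. The sums lie between 389.5 and 449, while the share is 2.32% and 2.42% in control MSCs and 8.08% and 4.70% in L-MSCs.

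The fibril-forming collagens and collagen VI, which hold most of the collagen FPKM, are given for comparison. Of 10 fibril-forming genes tested, 5 fell and none rose. Their median change was -1.17 on the log2 scale. *Col5a1*, *Col1a1* and *Col3a1* had the largest log2 fold changes of those called, -1.79, -1.58 and -1.42, and the FPKM of *Col1a1* went from 6571 and 5949 in control MSCs to 1617 and 3117 in L-MSCs. The fibril-forming genes that fell numbered 3 without control replicate 1, 2 without control replicate 2, 1 without L-MSC replicate 1 and 6 without L-MSC replicate 2. They numbered 2 without scaling or with TPM, 3 after quantile normalization, and 0 without the filter or without a variance trend. Of 7 osteoblast markers, 6 were tested and 1 fell, namely *Bglap2*, with a log2 fold change of -2.88. The osteoblast markers that fell numbered 0 without scaling, with TPM, after quantile normalization or with a pseudocount of 0.1. Without the filter, without a variance trend or with a robust fit they also numbered 0. With a minimum FPKM of 5 or the replicate block they numbered 2. The summed FPKM of the 7 was 644 to 1413 in control MSCs and 603 to 1081 in L-MSCs. *Ibsp*, whose groups overlapped, held most of it. After scaling, both L-MSC libraries lay below both control libraries for 4 of the 6, where 27.2% of all genes did so. *Bglap* had an FPKM of 114 and 65.0 in control MSCs and of 8.53 and 43.7 in L-MSCs, without passing. The groups overlapped for *Runx2*. The part of osteoblasts in the collagen levels was not tested. Of 5 tested genes of collagen VI and other collagens, 3 fell, namely *Col6a1*, *Col6a2* and *Col6a3*, with log2 fold changes of -1.45, -1.72 and -1.64. No test of the difference between these classes and the 10 genes was made.

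Other genes of the basement membrane did not move as one group. Of 9 laminin genes tested, 0 were called, while 1 was higher and 2 were lower by an unadjusted limma p up to 0.05, and the median log2 fold change was 0.00. *Lamb2*, encoding the β chain that was most abundant, had an FPKM of 121 and 173 in control MSCs and of 140 and 172 in L-MSCs. *Lama4* and *Lamc1*, chains of vascular laminin, differed by -0.75 and -0.85 on the log2 scale without passing (adjusted p = 0.152 and 0.0870 from limma). *Lama2*, a laminin chain of muscle and nerve, had 0.70 (adjusted p = 0.168 from limma). Of 9 genes for linkers and proteoglycans, 1 was called higher and 0 lower. It was *Fbln1*, encoding the basement membrane glycoprotein fibulin-1, with an FPKM of 78.8 and 94.3 in control MSCs and of 198 and 184 in L-MSCs and a log2 fold change of 1.04 (adjusted p = 0.0200 from limma). Without control replicate 1 or without L-MSC replicate 1, 0 genes of that list were called. *Nid1*, which links laminin to collagen IV, had a log2 fold change of 0.50 (adjusted p = 0.255 from limma), and *Sparc*, whose collagen-binding product is abundant in bone, had -1.24 (adjusted p = 0.0645 from limma).

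Of 11 genes for collagen assembly and cross-linking, 3 fell and none rose, and the median change was -0.65 on the log2 scale. *P4ha2*, a prolyl hydroxylase subunit, fell by 1.71 on the log2 scale, *Loxl2*, an oxidase that cross-links collagen IV, by 1.31, and *Serpinh1*, the collagen chaperone HSP47, by 1.19 (adjusted p = 0.00283, 0.0358 and 0.0269 from limma). Those that fell numbered 2 without either control library, 1 without L-MSC replicate 1 and 4 without L-MSC replicate 2. *Pxdn*, encoding the peroxidase that makes the sulfilimine cross-link of collagen IV, had an FPKM of 9.45 and 13.1 in control MSCs and of 6.88 and 6.23 in L-MSCs. Of 12 receptor genes, 1 rose, namely *Itga10*, a collagen-binding integrin of cartilage, from an FPKM of 9.83 and 11.9 to 26.0 and 23.6 (log2 fold change 1.03, adjusted p = 0.0392 from limma). Without any 1 of control replicate 1, control replicate 2 or L-MSC replicate 1, 0 receptor genes were called. *Itga1*, the integrin chain that prefers collagen IV, had an FPKM of 4.4 and 3.14 in control MSCs and of 7.09 and 10.0 in L-MSCs, with a log2 fold change of 0.91 (adjusted p = 0.132 from limma). *Itgb1*, the β1 chain that pairs with it and the most abundant receptor gene, had a log2 fold change of -0.16 (adjusted p = 0.762 from limma).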

How the data were processed

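RNA of sorted MSCs was amplified with a SMART-Seq kit and sequenced at BGI. Per the labels and methods, the authors filtered reads with SOAPnuke, used the aligners Bowtie2 2.2.5 and HISAT2 2.0.4, and made the deposited FPKM with RSEM 1.2.8 on GRCm38.p6. The FPKM have 2 decimals and are not scaled between libraries. A column of the authors' log2 fold changes was not used. Median-of-ratios factors were applied to the FPKM ( 0.957, 0.973, 1.02 and 1.05), genes reaching an FPKM of 1 in 2 or more libraries were kept, and log2(FPKM + 1) was fitted with limma 3.58.1 in R 4.3.3 (eBayes with trend), with p adjusted over all 11056 genes. The fit was run on simulated data with the same spread for every gene and independent libraries. That run was a check of the code and does not measure how reliable the calls are. Nothing says that same-numbered libraries are paired, so that no block was used.

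The 10 genes and all lists were chosen with earlier results of these data known. Named genes were the 10 collagens and, of each other list, up to 3 called genes with the largest change and the most abundant member. Marker lists were given by their summed level and the markers at 0. Further genes were named after their values were seen. Alternatives were other scalings, pseudocounts, filters and variance priors, a replicate block, no fold threshold and each library left out. Positions come from RefSeq, which held 17406 of the listed genes.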

Additional observations from a re-analysis of the deposited data

How the results depend on the processing

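All but *Col16a1* kept their direction under the 15 alternatives, and *Col16a1* turned to 0.06 without control replicate 2 and to 0.19 without L-MSC replicate 1, with a range of -0.47 to 0.19 over the libraries left out. The collagens called lower (1 as reported) numbered 0 with TPM, without the filter and without a variance trend, and 2 with a minimum FPKM of 5, a robust fit, the replicate block and no fold threshold. Those called higher (0) numbered 1 after quantile normalization, which was *Col4a1* with an adjusted p of 0.0499 from limma. With 1 library left out, 0 to 3 were lower and 0 to 1 higher. The median log2 fold change of the 10 was -0.26 without scaling and -0.25 after quantile normalization, and -0.52 to -0.34 with 1 library left out. The share of the collagen FPKM differed by 2.33 to 5.71 percentage points with 1 library left out.

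Over all genes, 194 were lower without scaling, 182 with TPM and 128 without a variance trend, where 148 were higher. Without the filter limma called 0 lower and 0 higher, with 1292 lower and 1063 higher at an unadjusted p of at most 0.05. With 1 library left out, 152 to 531 were lower and 146 to 464 higher. With the replicate number as a block, 509 were higher and 438 lower. Over the genes tested, the differences between replicates 1 and 2 had a correlation of 0.101 between the groups, and with 2 pairs and no label that pairs them the libraries share only a number. The cause of these changes was not tested. With 2 pooled libraries a group, *Col4a2*, *Col12a1*, *Col14a1*, *Col16a1*, *Col18a1* and *Col22a1* were called under none of the 15 alternatives.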

Other observations

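Several cartilage genes, named after their values were seen, were highest in control replicate 1. *Col9a3*, a chain of the cartilage FACIT collagen IX, had an FPKM of 15.6 in control replicate 1, 1.34 in control replicate 2, and 0.76 and 2.17 in L-MSC replicates 1 and 2. *Col10a1*, the network collagen of hypertrophic cartilage, had 5.36, 0.45, 0.58 and 0.06 in the same order. *Col2a1*, the main cartilage collagen, had 171, 38.0, 29.4 and 30.4, and the cartilage gene *Cnmd* had 23.4, 2.89, 11.4 and 5.92. For *Acan*, *Col9a1*, *Hapln1* and *Sox9* control replicate 1 was also the highest, and control replicate 2 was above both L-MSC libraries. *Acan*, encoding aggrecan, was high in both control libraries, with 26.0, 21.1, 5.28 and 5.18, and fell (adjusted p = 0.00325 from limma). *Col9a1* had 4.39, 2.10, 0 and 1.38, *Hapln1* had 8.94, 6.52, 3.72 and 5.09, and *Sox9* had 61.8, 40.7, 32.6 and 23.2. *Comp*, by contrast, was highest in control replicate 2. Control replicate 1 was the highest library for *Col8a1*, *Col8a2*, *Col12a1*, *Col15a1* and *Col22a1* and the lowest for *Col4a1*, *Col4a2* and *Col14a1*. The share of the cartilage cells in these values was not tested.

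Of 7 erythroid markers, 4 were tested and all 4 fell, with a summed FPKM of the 7 of 150 to 239 in control MSCs and 6.26 to 10.1 in L-MSCs.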
